A study of Homo sapiens with 79 samples.

Results

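Followed through human retinal organoids were 81 nuclear genes named as protein subunits of the respiratory chain and the ATP synthase. The organoids were sampled on day 60, day 90 and day 200. Members were taken by gene name from 24414 counted genes. They were the NDUFA, NDUFB, NDUFC, NDUFS and NDUFV genes of complex I (38), SDHA to SDHD of complex II (4), the UQCR genes of complex III (9), COX4I1 and the COX5 to COX8 subunits of complex IV (13) and the ATP5 genes of complex V (17). Pseudogenes and antisense genes were left out, and so were the subunit genes NDUFAB1, CYC1, USMG5 and C14orf2, whose names the rule does not cover. ATP5S, whose current name is DMAC2L, was kept in complex V by its older name, and NDUFA4 was counted in complex I by its name. The organoids were grown from a CRX-GFP reporter of the H9 human embryonic stem cell line, which carries a fluorescent marker under the control of a photoreceptor gene, and serum, T3, taurine and retinoic acid were part of the medium at every time point. Cells were captured on Fluidigm C1 HT chips, full-length cDNA was made with SMART-Seq v4, and the cells of a chip column were told apart by barcode. The groups were 578 cells of day 60, 661 cells of day 90 and, at day 200, 356 cells of chip a and 381 cells of chip b. Where 4 values follow each other below, they stand in the order day 60, day 90, chip a and chip b.

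In the inner mitochondrial membrane, complexes I and II pass electrons from NADH and succinate to ubiquinone, complex III passes them on to cytochrome c, and complex IV reduces oxygen. Complexes I, III and IV pump protons, and complex V, the ATP synthase, uses the gradient to make ATP. Most subunits are encoded in the nucleus and a smaller core is encoded in mitochondrial DNA. Photoreceptors are among the cells with the highest energy demand in the body and pack mitochondria into the inner segment, while Müller glia, the radial glia of the retina, are known for a largely glycolytic metabolism.

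Each time point had few libraries, and these limit what the values can show. Total reads per chip ran from 89204989 to 115731787, with a median of 160343 to 251929 reads per cell. Day 60 and day 90 had 1 chip each, day 200 alone was run again, and all chips came from 1 cell line, so no test was made and differences are set beside the gap between the day 200 chips. The labels do not say whether the chips held separate differentiations. Chip columns (19 or 20 per chip) and cells are not replicates, and 38 cell barcodes, which tag the rows of a chip, were shared by all 4 chips. Chip a stood apart in complexity. After each cell was thinned to 50000 reads, a median of 30 members were detected per cell on chip a and 45 on chip b, against 53 at day 60 and 47 at day 90. The 13 protein genes of mitochondrial DNA were not analysed here, and the 2 ribosomal RNAs MT-RNR1 and MT-RNR2 stand in for mitochondrial transcripts.

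Upstream sequence is given for 5 members, COX5B, NDUFS6 and UQCRH with motif matches in the stretch shown and UQCR10 and ATP5G1 without. Levels differed between cell clusters in all 5. With the day 200 chips pooled, the log2 range over clusters was 1.67 in COX5B, 2.54 in NDUFS6 and 1.44 in UQCRH. It was 2.02 in UQCR10 and 3.18 in ATP5G1. NRF1, factors of the ETS family such as GABP, and YY1 are known regulators of nuclear respiratory genes, and CRX is the homeobox factor of photoreceptors. Of the 81 members, 66 matched a RefSeq promoter (GRCh38.p14, 250 bases before to 50 after the start of transcription). Each run below covers the 150 bases before the start, with the letters GCATGCGC (NRF1), CCGGAAG (ETS), AAGATGGCG (YY1) and TAATCC (CRX) in capitals where present on either strand. Each motif was searched on its own, so matches of different motifs may overlap. COX5B held an NRF1 and an ETS match, NDUFS6 an NRF1 match and UQCRH an ETS match, while UQCR10 and ATP5G1 held no match in this stretch.
COX5B (chr2:97645912-97646061, plus strand): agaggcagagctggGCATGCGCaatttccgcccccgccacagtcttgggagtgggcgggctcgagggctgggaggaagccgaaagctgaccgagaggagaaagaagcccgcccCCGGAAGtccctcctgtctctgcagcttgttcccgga
NDUFS6 (chr5:1801257-1801406, plus strand): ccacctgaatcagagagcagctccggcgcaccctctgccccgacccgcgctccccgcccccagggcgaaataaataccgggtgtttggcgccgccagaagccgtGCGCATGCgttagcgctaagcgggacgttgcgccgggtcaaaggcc
UQCRH (chr1:46303548-46303697, plus strand): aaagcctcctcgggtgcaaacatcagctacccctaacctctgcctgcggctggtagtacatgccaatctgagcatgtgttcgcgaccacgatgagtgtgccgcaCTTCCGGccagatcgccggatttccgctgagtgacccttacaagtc
UQCR10 (chr22:29767219-29767368, plus strand): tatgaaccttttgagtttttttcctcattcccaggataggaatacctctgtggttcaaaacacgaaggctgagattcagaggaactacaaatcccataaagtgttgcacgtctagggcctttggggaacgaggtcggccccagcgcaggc
ATP5G1 (chr17:48892637-48892786, plus strand): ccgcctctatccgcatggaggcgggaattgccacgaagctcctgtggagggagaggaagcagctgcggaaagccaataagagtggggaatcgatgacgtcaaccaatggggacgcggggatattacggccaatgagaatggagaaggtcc

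Over the whole 300-base window, the NRF1 letters were found in 13 of the 66 members (19.7%, exact binomial 95% interval 10.9 to 31.3%), against 4.26% of 15843 promoters of protein-coding genes. From 100 bases before the start to 50 after it, they were found in 6 members (9.09%, interval 3.41 to 18.7%), against 3.04%. The ETS letters were found in 19 members (28.8%, interval 18.3 to 41.3%), against 14.2% of all promoters, and the YY1 letters in 8 (12.1%, interval 5.38 to 22.5%), against 2.74%. At least 1 of these 3 motifs was present in 30 members (45.5%) and in 19.5% of all promoters. The CRX letters were found in 3 members, ATP5G1, NDUFA7 and UQCRC2 (4.55%, interval 0.947 to 12.7%), against 5.33% of all promoters. The median GC content was 60.7% in members and 62.7% in all promoters. A match describes the letters only.

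Summed over all cells of a chip, the members changed little with time. In counts-per-million (CPM), relative to all counted reads, they stood at 22580, 21399, 24578 and 20751. Chip a was 0.12 above day 60 and chip b was 0.12 below it on the log2 scale, so the mean difference (0.00) lay inside the gap of -0.24 from chip a to chip b. In a chip sum, fewer cells of a type and less RNA per cell cannot be told apart. Counting error was small beside this, with an exact Poisson 95% interval of 22551 to 22609 CPM at day 60. Such intervals describe counting error alone, as the reads carry no molecular identifiers and 1 molecule can give several of them. Single columns of a chip ranged from 15882 to 27238 CPM at day 60 and from 17908 to 32474 CPM on chip a, and those of the 4 chips overlapped.

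Complex by complex, the mean change from day 60 to day 200 was smaller than the gap between the day 200 chips, except in complex II. Complex I, the NADH dehydrogenase, was at 7580, 6860, 8859 and 7199 CPM, a mean change of 0.08 beside a gap of -0.30. Complex II, which also works in the TCA cycle, was at 185, 214, 222 and 198 CPM in the same order, and so was above day 60 on both day 200 chips by 0.26 and 0.10 on the log2 scale, a mean of 0.18 beside a gap of -0.16 from chip a to chip b. Complex III was at 3417, 3309, 4251 and 3079 CPM, a mean change of 0.08 beside a gap of -0.47. Complex IV, cytochrome c oxidase, was at 5886, 5201, 5764 and 5201 CPM and complex V at 5512, 5816, 5483 and 5075 CPM. Both were below day 60 on both day 200 chips, complex IV by -0.03 and -0.18 and complex V by -0.01 and -0.12. Their gaps from chip a to chip b were -0.15 and -0.11. The mitochondrial ribosomal RNAs followed another course: MT-RNR1 and MT-RNR2 together were at 69633, 42675, 45074 and 58683 CPM.

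**Figure D1:**
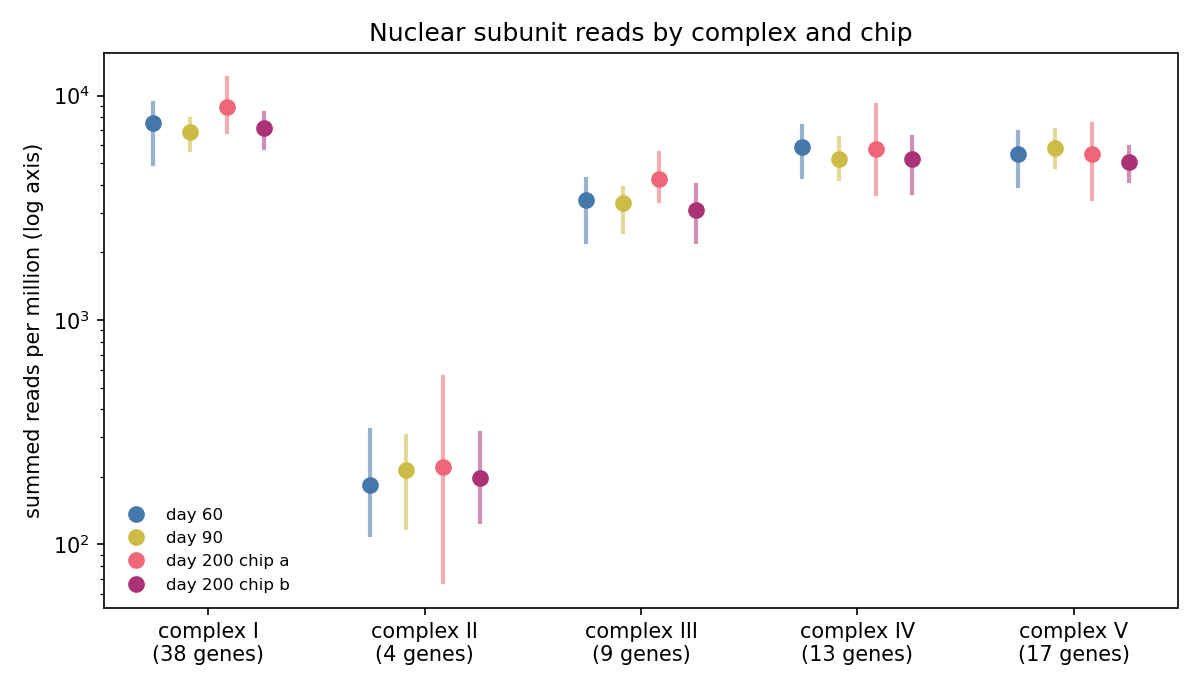
Summed CPM (log axis) of the nuclear subunits of each complex on the 4 chips. Points are chip sums and lines run from the lowest to the highest chip column, which overlap between chips for every complex.

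Of the 81 members, 77 had a mean of at least 5 CPM over the chips, while NDUFA4L2, COX6A2, COX6B2 and ATP5L2 did not. A member counted as higher or lower at day 200 where both chips lay at least 1.5-fold from day 60 in CPM + 1. None of the 77 was higher, while 14.7% of the 12365 genes that passed the same filter were, and 1 was lower (UQCRHL), against 7.63% of all genes. The median size of the log2 difference between the mean of the day 200 chips and day 60 was 0.20 in members and 0.41 in all genes. Members are abundant, and among genes with a mean of at least 50 CPM it was 0.19 in 69 members and 0.31 in 4349 genes. For single chips at this level it was 0.37 in members and 0.38 in all genes on chip a, and 0.22 and 0.29 on chip b. On chip a 47 members were above day 60 and on chip b 27 were, with 19 above on both and 22 below on both. The matching counts for all genes were not made. The median member differed from day 60 by 0.13 (chip a) and -0.10 (chip b) in log2(CPM + 1). For the 12365 genes these medians were 0.09 and 0.07.

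Day 90 against day 60 gave more calls. Lower at day 90 were 13 of the 77 members (16.9%), close to the 16.6% of all genes. They included ATP5I, ATP5J2 and ATP5O of the ATP synthase, COX5A and COX6A1 of cytochrome c oxidase, and the complex I accessory subunits NDUFA11, NDUFA12, NDUFA13, NDUFB8 and NDUFC2. Higher at day 90 were 5 members (20.6% of all genes): ATP5A1 and ATP5C1, which encode the alpha and gamma subunits of the ATP synthase head, NDUFV1, the subunit that binds NADH, NDUFA6, and UQCRB. At day 200, ATP5I, ATP5J2, NDUFA13, NDUFB8, NDUFC2 and UQCR11 were above day 90 on both chips (6 members, against 8.29% of all genes) and UQCRB was below it on both (1 member, against 5.38%). Chip b against chip a gave 9 members higher (16.4% of all genes) and 18 lower (15.3%), which is more than day 90 against day 60 gave. In UQCRB the chip columns of day 90 (lowest 491, median 788, highest 1297 CPM) did not overlap those of day 60 (199, 352 and 464 CPM). It was the 1 member of 77 with separate columns in this direction, where 0.235% of all genes had them, and 0 members had them in the other, where 0.243% did.

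The largest rises from day 60 to day 200 with both chips on the same side were in NDUFV1, NDUFB5, NDUFA7, NDUFA8, ATP5A1 and ATP5C1. NDUFV1 (chr11:67605653-67612554) was at 88.1, 156, 229 and 111 CPM. It lay 1.37 above day 60 on chip a and 0.34 above on chip b. The day 200 chips thus differed from each other by more than chip b differed from day 60. ATP5A1 differed less between the day 200 chips, at 286, 577, 404 and 363 CPM, that is 0.50 and 0.34 above day 60. In its chip columns day 60 (lowest 202, median 277, highest 388 CPM) and chip b (126, 355 and 524 CPM) overlapped. ATP5C1 was 0.47 and 0.37 above day 60, and NDUFB5, a membrane arm subunit, 0.76 and 0.48. NDUFA8 was 0.74 and 0.22 above. NDUFA7, at 0.86 and 0.13, rested on low levels, from 4.07 to 9.28 CPM over the chips.

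The largest falls were in UQCRHL, COX6A1, NDUFB4, NDUFV2, NDUFV3 and NDUFB11. UQCRHL, a near-identical copy of the complex III hinge gene UQCRH, was at 37.4, 19.1, 17.5 and 21.8 CPM, while UQCRH itself was at 368, 384, 390 and 317 CPM. Reads of such near-identical copies are uncertain, because the counting dropped reads that align to more than 1 place. COX6A1 was at 326 CPM at day 60 and at 164, 165 and 259 CPM on the later chips. NDUFV2, an iron-sulfur subunit with a pseudogene row of its own in the table, was at only 5.26 to 10.6 CPM. NDUFB4 was at 192 CPM at day 60 and at 116 and 150 CPM on the day 200 chips, and NDUFV3 was at 342 CPM and then 229 and 245 CPM. NDUFB11, which lies on the X chromosome, was at 87.7, 88.5, 46.6 and 78.5 CPM, so day 90 and chip b were near day 60.

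**Figure D2:**
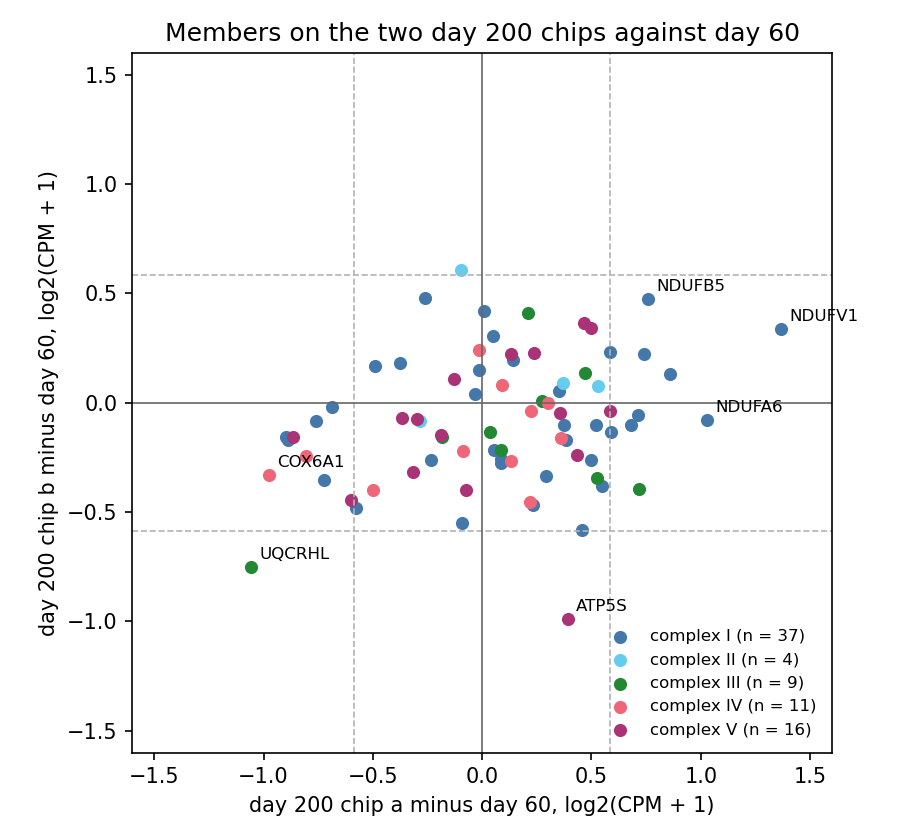
Difference of each of the 77 members from day 60 in log2(CPM + 1), with chip a of day 200 on the x axis and chip b on the y axis. Dashed lines mark 1.5-fold, and only UQCRHL lies past them on both chips.

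Levels of different genes were compared per kilobase of the canonical transcript. This scaling assumes that reads spread along the transcript, which was not checked. If reads gather at the transcript end, it lowers genes with long transcripts, and the order below may not hold. Complex II was the lowest complex, with a median member at 28.4 CPM per kb (mean of the chips), against 103 in complex III, 147 in complex I, 236 in complex V and 526 in complex IV. The highest member of complex I was NDUFB2, a small membrane arm subunit (chr7:140690777-140722790), at 1501, 1341, 2465 and 1445 CPM per kb. In complex II it was SDHB, the iron-sulfur subunit, at 60.9, 86.9, 88.3 and 64.3, and the lowest was the membrane anchor SDHD, at 10.6, 15.1, 9.89 and 16.6 CPM per kb. In complex III UQCR10 (chr22:29767369-29770413) was highest at 1194, 1042, 1967 and 907, and the Rieske protein gene UQCRFS1 lowest at 36.5, 40.8, 44.2 and 36.7 CPM per kb. In complex IV COX7A2 was highest at 2068, 1422, 2410 and 1512 CPM per kb, and in complex V ATP5I at 1946, 941, 1848 and 1477 CPM per kb. The lowest members of complexes I, IV and V were isoforms or copies, NDUFA4L2, COX6A2 and ATP5L2, at means of 0.909, 0.314 and 5.73 CPM per kb. Long annotated ends lower the value per kilobase of some genes, such as NDUFS1, whose transcript has 11660 bases of which 2181 are coding.

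Cells were clustered without the members and without mitochondrial genes, which gave 12 clusters. Named from the marker lists of the study were Müller glia-like (453 cells), cone-like (234), RGC-like (150), mitotic-like (104), RPE-like (96), ECM-like (85) and rod-like (61) cells and clusters 7-like (75) and 8-like (93). The other 3 are called by leading genes. GDF15/ANGPTL4 (324 cells) met no marker list. VSX1/LHX4 (201) met the rod list with 6 markers but also the RGC list with 4, and IGFBP6/GBP2 (100) met the Müller glia list with 5 markers, none of them among its 10 leading genes. The names are rebuilt ones, and the marker lists were themselves drawn from these cells, so they are not independent evidence of cell type. In the cone-like cluster all 10 cone markers passed the naming rule, and in the Müller glia-like cluster 9 of 10 Müller glia markers did. The paper reports expression of retinal progenitor genes in its own Müller glia cluster at each time point. SFRP2, which is on its progenitor list, is a leading gene of the Müller glia-like cluster here, so this cluster may hold progenitors. The cone and Müller glia lists were both higher in their own cluster at the later times. The 10 cone markers summed to 2753, 10264, 16635 and 16608 CPM in cone-like cells, and the 10 Müller glia markers summed to 8879, 13436, 27541 and 21267 CPM in Müller glia-like cells.

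Cone-like cells carried more respiratory chain reads than any other cluster of at least 20 cells on every chip but day 60, where the cluster 8-like cells held 26872 CPM. In cone-like cells the members summed to 25951 CPM at day 60 (45 cells), 28072 at day 90 (98 cells), 42169 on chip a (62 cells) and 30762 on chip b (29 cells). Both day 200 chips were above day 60, by 0.70 and 0.25 on the log2 scale. In Müller glia-like cells they summed to 20500 CPM at day 60 (143 cells), 15942 at day 90 (134 cells), 17248 on chip a (100 cells) and 17153 on chip b (76 cells). Here both day 200 chips were below day 60, by -0.25 and -0.26. The IGFBP6/GBP2 cluster held 18644 CPM at day 90 (28 cells) and 22541 CPM on chip b (49 cells), so more than Müller glia-like cells on both. RGC-like cells were at 23984 CPM at day 60, 25384 at day 90 and 27124 on chip b, and rod-like cells were at 22127 CPM at day 90 and 25889 on chip a. RPE-like cells, with 20 or more cells at day 90 alone, were at 25814 CPM. The VSX1/LHX4 cluster stayed between 18667 and 21988 CPM and the GDF15/ANGPTL4 cluster, whose leading genes include the stress genes GDF15 and TRIB3, between 19810 and 23699 CPM. Mitotic-like cells held 19466 CPM on the day 60 chip and 16600 CPM on the day 90 chip, and ECM-like cells held 16460 CPM at day 90 and 15490 CPM on chip b.

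The ratio of cone-like to Müller glia-like cells was 1.27, 1.76, 2.44 and 1.79. It was thus above day 60 on each later chip. With the IGFBP6/GBP2 cluster joined to the Müller glia-like cells, a choice made after the values were seen, it was 1.23, 1.70, 2.47 and 1.57. Single cells showed the same order in their medians. The members took a median of 2.74%, 2.56%, 3.78% and 2.89% of the reads of a cone-like cell on the 4 chips, and 2.00%, 1.55%, 1.73% and 1.67% of those of a Müller glia-like cell. The median cone-like cell had 197891, 191763, 261356 and 210975 reads and the median Müller glia-like cell 151875, 136764, 252714 and 210032 reads, so depth differed between the clusters at days 60 and 90 and was close to equal on the day 200 chips. Mitochondrial RNA was not higher in cone-like cells after day 60. It took 7.74%, 3.48%, 4.06% and 5.06% of the reads of cone-like cells and 7.00%, 5.06%, 4.58% and 6.11% of those of Müller glia-like cells. Müller glia markers in cone-like cells summed to between 854 and 2072 CPM, and RGC markers, at 2508 CPM in cone-like cells at day 60, to between 576 and 770 CPM later. The 10 rod markers, 5 of which passed the naming rule in the cone-like cluster, summed to 1433, 2327, 2540 and 2224 CPM there. Their part in the result was not tested.

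**Figure D3:**
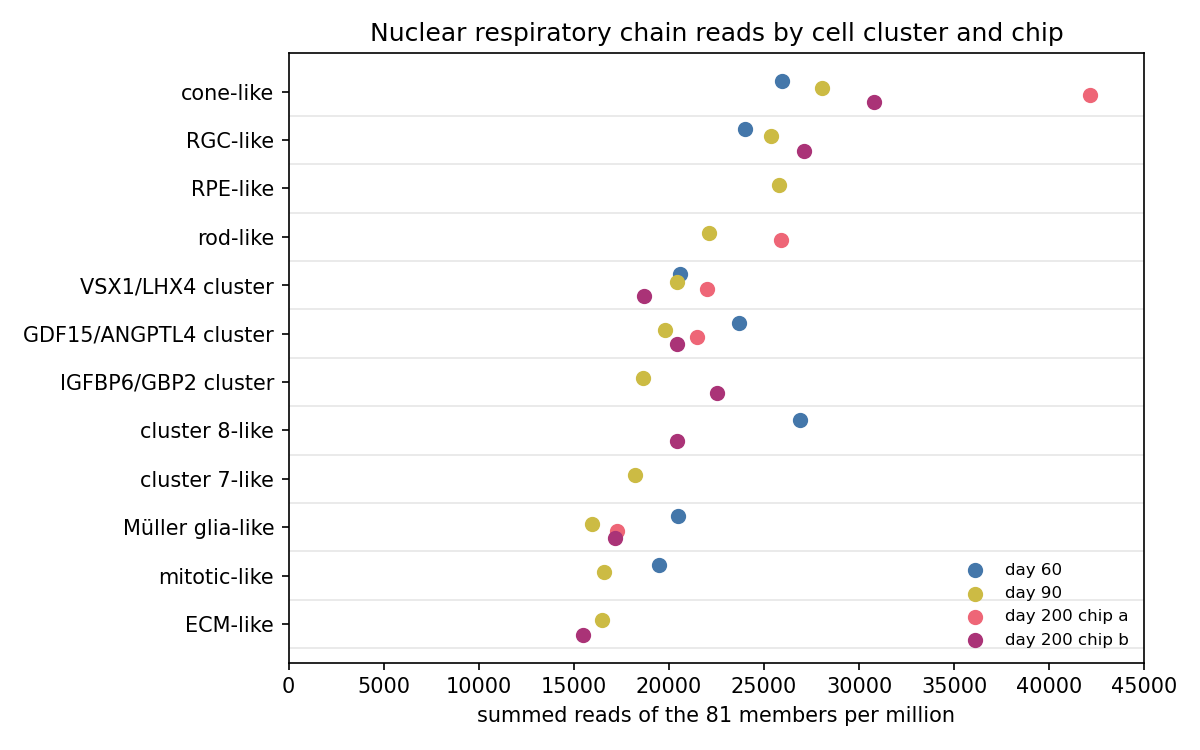
Summed CPM of the 81 members in each cluster with at least 20 cells on a chip. Cone-like cells lie at 25951 to 42169 CPM and Müller glia-like cells at 15942 to 20500 CPM.

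All 5 complexes were above Müller glia-like cells in cone-like cells on all 4 chips, complex II least evenly. For complex I the ratio was 1.27, 1.75, 2.28 and 1.75 from day 60 through chip b, for complex III 1.29, 1.77, 2.35 and 1.76, for complex IV 1.30, 1.79, 2.62 and 1.97, and for complex V 1.21, 1.76, 2.62 and 1.74. Complex II had ratios of 1.34, 1.39, 2.45 and 1.18. Its cone-like level on chip b, 169 CPM, was below that of day 60, 210 CPM.

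Counted by gene, 15 of the 77 members were at least 1.5-fold higher in cone-like than in Müller glia-like cells at day 60, where 22.5% of all genes were. At day 90 the count was 53 (68.8%, against 30.2% of all genes), on chip a 65 (84.4%, against 29.5%) and on chip b 50 (64.9%, against 29.5%). Lower in cone-like cells were 1, 2, 2 and 1 members, where 32.2%, 27.7%, 36.7% and 37.1% of all genes were. The median member stood 0.35, 0.83, 1.17 and 0.81 above Müller glia-like cells in log2(CPM + 1), and the median of all genes tested lay between -0.11 and 0.05. The 7 members past 1.5-fold on all 4 chips (9.09%, against 5.2% of all genes) were ATP5A1, ATP5B, COX5A, COX7A2, NDUFS4, NDUFS8 and UQCRH, and none was lower on all 4, against 7.8% of all genes. ATP5A1 and ATP5B encode the alpha and beta subunits of the catalytic head, COX5A a matrix-side subunit of complex IV, and NDUFS8 an iron-sulfur subunit of complex I.

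ATP5A1 shows the pattern. In cone-like cells it was at 456, 906, 754 and 760 CPM. In Müller glia-like cells it was at 252, 392, 215 and 282 CPM. ATP5G1, which encodes the c subunit of the rotor ring, differed most on chip a, at 903 CPM in cone-like and 153 CPM in Müller glia-like cells, and was at 322 and 223 CPM at day 60. Its difference was 0.53, 1.52, 2.55 and 1.61 on the 4 chips. At day 60, 66 of the 77 members were above 0 in this difference, and 74, 74 and 70 were on the later chips. Of all 12365 genes tested, 5502, 6428, 5626 and 5736 were above 0 on the 4 chips. The abundant ATP5G2 (556 against 700 CPM) and ATP5H (124 against 183 CPM) were lower in cone-like cells at day 60 and higher later, and SDHC was lower on chip b (32.7 against 46.03 CPM). Lower by 1.5-fold on some chip were NDUFA7, NDUFV2, SDHD and UQCRHL. NDUFA7 was lower in cone-like cells on chip a (2.48 against 8.54 CPM) and higher on the other 3 chips, NDUFV2 was at 2.18 against 24.9 CPM at day 90 and higher in cone-like cells at day 60 and on chip a, and the anchor SDHD, which was below 0 on all 4 chips, was at 8.24 against 17.7 CPM on chip b. UQCRHL was lower in cone-like cells on 3 chips and at 22.9 against 16.8 CPM on chip b. All 4 are members of low level.

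**Figure D4:**
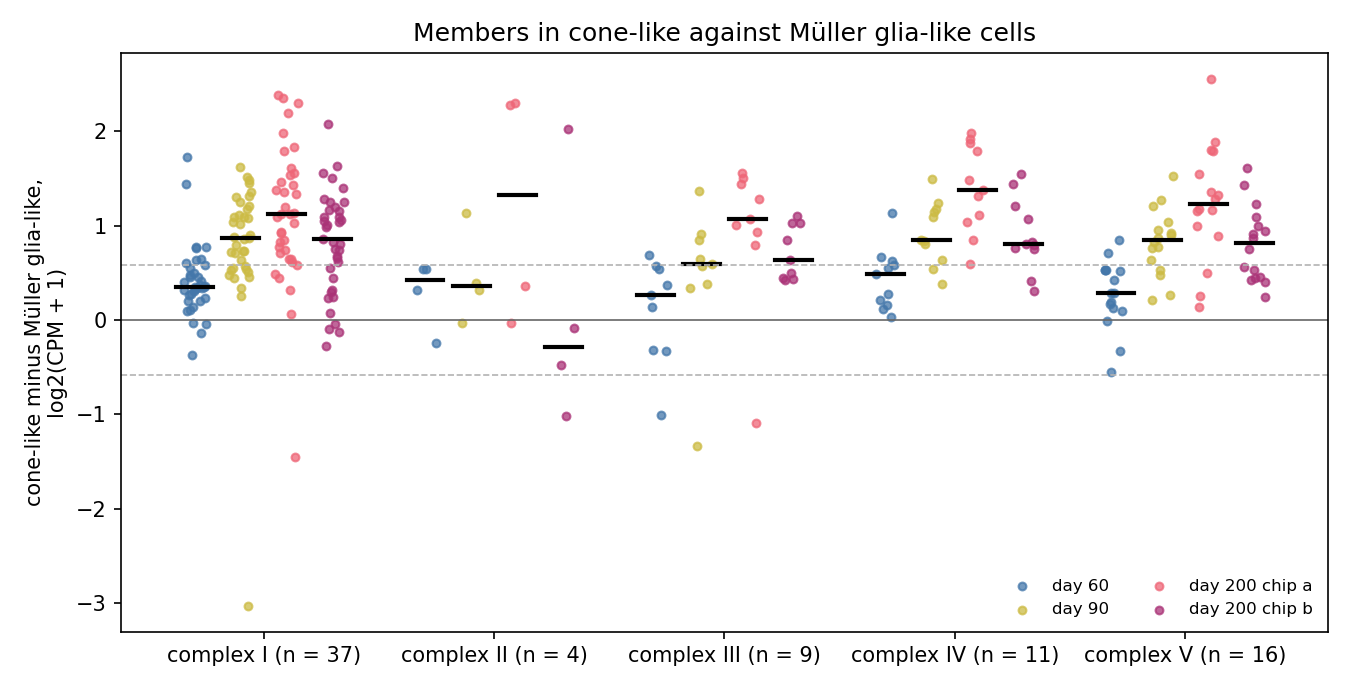
Difference of each of the 77 members between cone-like and Müller glia-like cells in log2(CPM + 1), by complex and chip. Black bars are medians and dashed lines mark 1.5-fold. Most points lie above 0, and the medians of complexes I, III, IV and V on the later chips lie above those of day 60.

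Within cone-like cells, 13 members were at least 1.5-fold above day 60 on both day 200 chips (16.9%, against 16.8% of all genes) and none was below it (18.7% of all genes). They were ATP5A1, ATP5C1, ATP5H, COX5B, NDUFA1, NDUFA6, NDUFA9, NDUFB2, NDUFB5, NDUFB9, NDUFS1, NDUFV1 and UQCRC2. The share that was higher is that of the background. Within Müller glia-like cells 1 member was higher at day 200 (NDUFA7, against 15.1% of all genes) and 8 were lower (10.4%, against 14.1%): ATP5G2, ATP5I, COX5A, COX6B1, COX7C, NDUFB4, NDUFS3 and UQCRHL. The median member moved by 0.60 and 0.19 on the 2 day 200 chips in cone-like cells and by -0.22 and -0.16 in Müller glia-like cells.

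On chip a, 58 of the 77 members were highest in cone-like cells among the 5 clusters of at least 20 cells, where 17.9% of all genes were. RGC-like cells, at 35361 CPM on this chip, were not among the 5, as they numbered 9. The counts of the chips are thus against different clusters. On chip b the count was 35 among 8 clusters, where 15.5% of all genes were, and another 21 members were highest in RGC-like cells, where 18.6% of all genes were. At day 60, among 7 clusters, the cone-like cells held the highest level of 19 members, where 14.2% of all genes were highest there, and the cluster 8-like cells of 28, where 19% were. For the spread over clusters at day 200 both chips were pooled, and clusters needed 20 cells in the pool. Small clusters thus entered, such as cluster 7-like with 9 and 15 cells on chips a and b. By the range of CPM, which favours abundant genes, the widest spread was in UQCR10, NDUFB2, COX7A2 and COX5B, each highest in cone-like cells. On the log2 scale it was widest in SDHA (4.81, highest in ECM-like cells), beside 2.98 in NDUFB2 and 2.02 in UQCR10. In ECM-like cells complex II summed to 477 CPM on chip a (6 cells) and 204 CPM on chip b (31 cells). NDUFB2 in cone-like cells was at 753, 724, 2378 and 1427 CPM, while in Müller glia-like cells it stayed between 502 and 781 CPM. UQCR10 was at 1500, 1484, 3166 and 1468 CPM in cone-like cells, so that chip b was at the level of day 60. COX5B, whose promoter holds both an NRF1 and an ETS match, was at 931, 853, 1688 and 1475 CPM in cone-like cells and at 767, 487, 824 and 544 CPM in Müller glia-like cells. COX7A2, the widely expressed form of its subunit, was at 1203, 846, 2138 and 1104 CPM in cone-like cells and at 758, 373, 564 and 476 CPM in Müller glia-like cells.

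Tissue-specific isoforms were close to silent. NDUFA4L2, a hypoxia-induced relative of NDUFA4, had 114 reads in 5 of 578 cells at day 60, 209 reads in 16 of 381 cells on chip b and none in the 661 cells of day 90 or the 356 cells of chip a. The absence of reads allows a level of up to 0.0259 CPM at day 90 and 0.0310 CPM on chip a, at 3 reads per chip. Of the 16 cells on chip b, 7 were in the GDF15/ANGPTL4 cluster. NDUFA4 itself, now assigned to complex IV although its name is that of complex I, was at 505, 571, 759 and 595 CPM. COX6A2, the form of heart and skeletal muscle, had 54 reads in 5 cells at day 90 and none on the other chips, while COX6A1 had 164 to 326 CPM. COX6B2, known from testis, reached at most 2.42 CPM (day 90) against 574 CPM of COX6B1 on that chip. COX4I2, a lung isoform that the member rule leaves out, reached at most 1.48 CPM, in 9 cells of chip b of which 1 held 114 of the 132 reads, while COX4I1 was at 765, 941, 983 and 685 CPM. ATP5L2, a near-identical copy of ATP5L at 1.99 to 6.39 CPM, had reads in 289 of 578 cells at day 60, and on chip a 1 cell held 298 of its 442 reads. COX7A1, COX7B2 and COX8C were not analysed here.

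The 3 genes ATP5G1, ATP5G2 and ATP5G3 encode the same mature c subunit behind different import signals, and their shares give the part of each gene in its mRNA. Over all cells ATP5G1 made up 31.7%, 34.4%, 48.0% and 34.0% of their reads per kilobase. ATP5G2 made up 59.4%, 54.01%, 43.9% and 55.3% and ATP5G3 8.88%, 11.5%, 8.08% and 10.7%. ATP5G3 has a long transcript, and per kilobase of coding sequence its share was 27.95%, 34.1%, 25.7% and 32.2%. In cone-like cells the ATP5G1 share was 32.7%, 41.5%, 63.8% and 40.4%, and in Müller glia-like cells 21.96%, 23.1%, 27.04% and 24.3%. ATP5G1 thus held a larger share in cone-like than in Müller glia-like cells on every chip. Larger shares than in cone-like cells were found in RGC-like cells at day 60 (44.4%) and on chip b (51.7%), and rod-like cells on chip a held 64.8%. Its share in the GDF15/ANGPTL4 cluster was 38.01% to 47.9%. ATP5G2 was the main gene in Müller glia-like cells, at 63.4% to 70.3% of reads per kilobase. Its level there was 700, 443, 355 and 346 CPM. Pseudogenes of ATP5G1 and ATP5G2 have rows of their own in the table, so reads could be split or dropped by the counting.

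**Figure D5:**
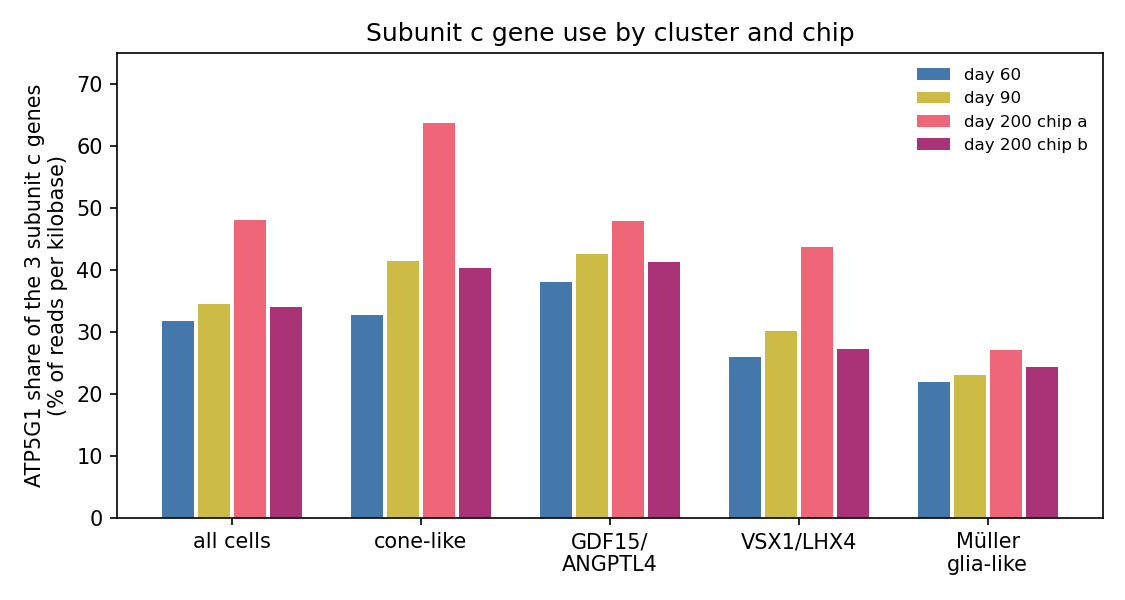
Share of ATP5G1 in the reads per kilobase of the 3 subunit c genes, over all cells and in the 4 clusters with at least 20 cells on every chip. Müller glia-like cells lie at 21.96 to 27.04% and cone-like cells at 32.7 to 63.8%.

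Other genes of the pathway were counted as lists in the comparison of cone-like and Müller glia-like cells. At least 1.5-fold higher on all 4 chips were CYCS, which encodes cytochrome c, 2 of 13 complex I assembly factors (NDUFAF3 and FOXRED1), 1 of 6 of complex III (UQCC2) and 2 of 20 of complex IV (COX17 and PET100). Of all genes 5.2% were higher by this rule and 7.8% lower, so lists with 1 or 2 calls lie close to the background. CYCS was at 229, 276, 291 and 386 CPM in cone-like cells and at 87.9, 85.2, 115 and 99.4 CPM in Müller glia-like cells. UQCC2 was at 755, 589, 1115 and 767 CPM against 246, 157, 287 and 189 CPM. COX17, the copper chaperone of complex IV, was at 197, 387, 548 and 480 CPM against 76.6, 96.0, 127 and 72.1 CPM. None of the 4 complex II or 3 ATP synthase assembly factors was called on all 4 chips.

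Among 12 tested regulators of mitochondrial biogenesis, ESRRG, a nuclear receptor of oxidative genes, was higher in cone-like cells on all 4 chips, at 47.9, 109, 213 and 62.8 CPM against 16.0, 39.1, 64.7 and 26.3 CPM. PPARGC1A, the coactivator PGC-1alpha, was at 4.32 CPM in cone-like cells at day 60 and at 59.02, 64.1 and 61.1 CPM later, and at 14.4, 20.2, 29.7 and 44.99 CPM in Müller glia-like cells. Over all cells it was at 12.7 CPM at day 60 and at 44.97, 37.9 and 41.7 CPM later, and it was the 1 gene of 12 higher on both day 200 chips, where 14.7% of all genes were. Among the TCA cycle genes, PDHA1 was higher in cone-like cells on all 4 chips and SUCLG2 lower. The list summed to 1196, 1225, 1747 and 1217 CPM in cone-like and 925, 887, 797 and 678 CPM in Müller glia-like cells. In cone-like cells SUCLG2, the GTP-forming subunit of succinyl-CoA ligase, was at 11.5 and 19.03 CPM at days 60 and 90. It was at 0.275 CPM on chip a and had no read in the 29 cells of chip b, too few cells to set a firm bound. In Müller glia-like cells it was at 19.4, 65.3, 20.1 and 32.7 CPM.

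Glycolytic genes as a list were also higher in cone-like cells. Of 19 glycolytic genes 4 were higher in cone-like cells on all 4 chips (TPI1, ALDOC, ENO2 and HK2), 1 was lower (the glucose transporter gene SLC2A1), where 5.2% and 7.8% of all genes were, and the list summed to 12009, 9382, 12990 and 11271 CPM against 9619, 6417, 8016 and 9502 CPM. HK2, which encodes a hexokinase that binds mitochondria, was at 257, 198, 382 and 335 CPM against 98.5, 35.02, 35.2 and 63.2 CPM. SLC2A1 was at 414, 177, 186 and 217 CPM against 801, 346, 625 and 1007 CPM. Of the hypoxia list none of 11 tested was higher on all 4 chips and SLC2A1 was lower. CKMT1A, a mitochondrial creatine kinase gene with a near-identical copy, was at 10.3, 10.7, 32.1 and 19.6 CPM in cone-like cells and at most 0.152 CPM in Müller glia-like cells. Of 10 mitochondrial stress genes DDIT3 was higher in cone-like cells on all 4 chips.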

How the data were processed

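Single cells of H9 retinal organoids were sequenced on Fluidigm C1 chips, and the 79 samples in the labels are chip columns, which were joined into 4 chips by time point and chip. Per the study's methods, the authors trimmed reads with Trimmomatic 0.33, aligned them with STAR 2.4.0 to GRCh38.p7 (GENCODE annotation), summarised them by gene in HTSeq 0.6 and removed cells of low depth, few genes or a high mitochondrial or spike-in share, with a looser spike-in limit at day 90. What the authors deposited is a table of raw counts, not normalized. No strand setting is named, so overlapping and antisense genes cannot be told apart, and multi-mapped reads were dropped. The spike-in row was kept out of library sizes. No cell was left out and no doublet caller was run.

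Counts were summed per chip, or per cluster and chip with at least 20 cells, and divided by all reads (CPM). The range over clusters at day 200 was taken from both chips pooled, with at least 20 cells in the pool. Differences are log2 of CPM + 1, calls need 1.5-fold and a mean of at least 5 CPM, and no test was made. Clusters come from Seurat 5.3.0 under R 4.3.3 (1000 variable genes per time point, 20 dimensions, resolution 0.6) without members and mitochondrial genes, named from the marker lists of the study. A cluster could take a name where 3 or more markers had reads in 20% of its cells or more and stood 2-fold or more above the other cells, with 5 CPM added to both. A cluster that met a list with none of its markers among its 10 leading genes, or the rod list together with the RGC list, was called by leading genes instead. Transcript lengths and positions are from GENCODE 44 on GRCh38, which matched all 81 members. Tables were made with pandas 2.3.3, numpy 2.4.6 and scipy 1.17.1, and TMM factors with edgeR 4.0.16. The call rule was tried on simulated chip sums with less spread between chips than these data and with true folds well past 1.5. Between the day 200 chips the median size of the log2 difference was 0.38 in all genes tested. The simulation therefore does not show how the rule behaves at the spread of these data. Alternatives covered library size, cell filters, thinning, resolution, lengths and leaving out either day 200 chip.

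The members and gene lists were chosen with earlier results of these data known. Named with values were the isoform pairs, the highest and lowest member per kilobase in each complex, the 6 largest rises and 6 largest falls from day 60 to day 200 with both chips on the same side, and the 4 members with the widest range over clusters at day 200. Other genes were named as calls of a list or after their values were seen. The result of 1 gene of the TCA cycle list is not reported here.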

Additional observations from a re-analysis of the deposited data

Results flagged for a closer look

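The change from day 60 to day 200 ran in opposite directions in cone-like and Müller glia-like cells. For all members together it was above 0 on both day 200 chips in cone-like cells and below 0 on both in Müller glia-like cells, and the mean changes differed by 0.73 on the log2 scale. The same held for complex I (0.66), complex IV (0.81) and complex V (0.82). In complexes II and III the chips of 1 of the clusters did not share a direction. The difference was not tested, since day 60 has 1 chip. Over the same time the cone markers in cone-like cells and the Müller glia markers in Müller glia-like cells rose, and the part of that maturation in the result was not tested. The paper found retinal progenitor genes in its Müller glia cluster. A change within glia and a shift from progenitor to glial cells in the Müller glia-like cluster thus cannot be told apart here.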

How the results depend on the processing

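No paired analysis was possible because no result comes from a test, and day 60 and day 90 have 1 chip each. Of 183 alternative values of 24 results, 156 stayed within 1.5 times the reported count or within the spread given, and 27 moved. The 156 include values that could hardly move. Spike-in reads were at most 0.0165% of the reads of a chip, and COX6A2 had no read at day 200. A change of sign was looked for only in alternatives of the cluster levels, where 0 reversed. Over all cells, the log2 change of all members was 0.12 on chip a and -0.12 on chip b. That of complex I was 0.22 and -0.07. Leaving out a day 200 chip could not take a log2 value or share beyond its spread, which was set from the same chips. Counts of members rest on the demand that both day 200 chips share a direction. With chip a alone, 11 members were higher than day 60 (25.8% of all genes) and 10 lower (18.7%). Against day 90, 16 were above (19.3%) and 2 below (16.0%). With chip b alone, these counts were 1 (21.2%), 2 (12.3%), 8 (16.7%) and 7 (12.5%) in the same order, and with both chips they were 0, 1, 6 and 1. At a fold of 2, the counts for day 200 were 0 below day 60 (3.23% of all genes), 1 above day 90 (2.60%) and 0 below it (1.75%). For day 90 against day 60 they were 3 higher (10.5%) and 7 lower (6.88%). Below day 90 the count at day 200 was 2 with no filter on level (14.0% of all genes) and with TMM factors (6.69%). It was also 2 with cells of at least 150000 reads and at most 10% mitochondrial reads (6.08%), and with cells thinned to 50000 reads (5.54%).

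The log2 fall from day 60 to day 200 in Müller glia-like cells (-0.25) was -0.20 at resolution 0.4, -0.18 at resolution 0.8, -0.28 without mitochondrial genes in the library size, -0.22 as a mean over cells, -0.36 with the cell filter, -0.22 after thinning, -0.14 with TMM factors and -0.20 with the IGFBP6/GBP2 cluster joined (chip a -0.30, chip b -0.10). The last 4 were added after the data were seen. In cone-like cells the rise (0.47) was 0.25 on chip b and 0.70 on chip a. The COX6B2 share at day 200 (0.038%) was 0.122% unscaled and 0.119% by coding length, the latter added after the data were seen. The share of members with the NRF1 letters fell from 19.7% to 9.09% in the window from 100 bases before the start, where 3.04% of all promoters held them. The 29 cone-like cells of chip b limit its values.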
